A study of Mus musculus with 24 samples.

Results

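The genes described here encode the proteins of the mitochondrial ribosome, taken as every gene of the deposited table whose symbol is Mrpl or Mrps followed by a digit, with pseudogenes left out. The rule found 77 of the 17541 genes in the table, 48 Mrpl genes named for the large subunit and 29 Mrps genes named for the small subunit. All 77 passed the filter on low counts and were among the 15939 genes tested. The rule reads gene symbols and no measured value. An annotation of the mouse genome (GENCODE vM21, build GRCm38) names 78 such genes, and Mrpl53 is the one not analysed here.

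The mitochondrial ribosome translates the few proteins that the mitochondrial genome encodes, all of them subunits of the respiratory chain and ATP synthase. Its RNAs are transcribed inside the organelle, but every one of its proteins is encoded in the nucleus, made in the cytosol and imported. Some of these proteins descend from the bacterial ribosome and others were gained later in evolution. In white adipose tissue the machinery belongs to the general oxidative capacity of the fat cell, and mitochondrial content is known to be lower in obesity. Symbols do not always follow position: the proteins of Mrps30 and Mrps18a sit in the large subunit, and that of Mrps36 is now known as a part of the 2-oxoglutarate dehydrogenase complex.

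RNA came from inguinal white adipose tissue, a subcutaneous fat depot, of 24 wild-type C57BL/6J mice that were all fed a high fat diet, 1 library per mouse, and libraries were made with QuantSeq, a kit that reads transcripts at their 3' end. The 4 groups were Young CTRL (16 weeks, control, n = 7), Young BAM15 (16 weeks, BAM15, n = 6), Aged CTRL (92 weeks, control, n = 6) and Aged BAM15 (92 weeks, BAM15, n = 5), with Young CTRL as the stated reference. BAM15 is a small molecule that uncouples mitochondrial respiration from ATP synthesis; the labels give no dose, route or duration. Whole tissue was used, so fewer cells of a type and less RNA per cell cannot be told apart.

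Library totals ran from 8.62 to 21.9 M counts, and 0.285 to 0.440% of them fell on the 77 genes. Adipocyte markers were high in every library (10 of 10 tested, summed level from 20995 to 90026 CPM, which are normalised counts per M counts). Other tissue was present in amounts that differed between mice of the same group: the summed level of 12 skeletal muscle markers ran from 25.3 to 71757 CPM, and that of 12 B cell markers from 104 to 2629. The large rRNA of mitochondria, mt-Rnr2, took 0.121 to 0.257% of counts in 4 mice, namely Young CTRL 4, Aged CTRL 2 and the Aged BAM15 mice 2 and 5, and never less than 0.722% in the remaining 20. The same 4 had 12.0 to 21.4% of counts on mitochondrial transcripts, against at most 9.27%, and the highest totals (18.4 to 21.9 M). Counts and medians of the 77 genes are therefore given with all 24 libraries and again with the other 20, and values of single genes without the 4 where stated.

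Levels of single genes are given in CPM too. Reads from the 3' end give about 1 count per transcript whatever its length, so CPM values were not divided by length, and the order of genes below is on that scale. The mean over the 24 libraries had a median of 40.3 CPM over the 77 genes. The highest were Mrps6 (247 CPM), Mrpl34 (122 CPM) and Mrpl33 (109 CPM), all 3 homologues of bacterial ribosomal proteins. The spread of Mrps6 within a group was wide: its mean was 261 ± 94.2 CPM in Young CTRL (SD, n = 7), 190 ± 78.1 in Young BAM15 (SD, n = 6), 296 ± 116 in Aged CTRL (SD, n = 6) and 238 ± 74.5 in Aged BAM15 (SD, n = 5). Mrps6 spans Slc5a3 on the same strand, so reads of the 2 genes may not have been separated. The lowest were Mrps18b (0.882 CPM), Mrps36 (1.07 CPM) and Mrpl23 (1.32 CPM). These 3 genes rest on few counts; Mrpl23 had 405 counts in all, and a processed copy, Mrpl23-ps1, had 274 in the same table, so its share is uncertain.

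The 3 paralogs of the small-subunit protein S18 occupy different places in the ribosome and had different levels. Mrps18c ranged from 25.3 to 60.5 CPM, Mrps18a from 9.89 to 29.2 CPM and Mrps18b did not exceed 2.56 CPM in any mouse. The ranges of Mrps18b and Mrps18a did not overlap, and those of Mrps18a and Mrps18c did. Among the 20 libraries with ordinary mt-Rnr2, the steadiest of the 77 genes was Mrpl37, whose log2 level had an SD of 0.147 and a range of 41.4 to 63.7 CPM. The least steady were Mrps18b (SD 1.23 on the log2 scale), Mrps28 (0.893) and Mrps36 (0.879), of which Mrps28, named after its values were seen, ran from 2.02 to 25.6 CPM.

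**Figure D1:**
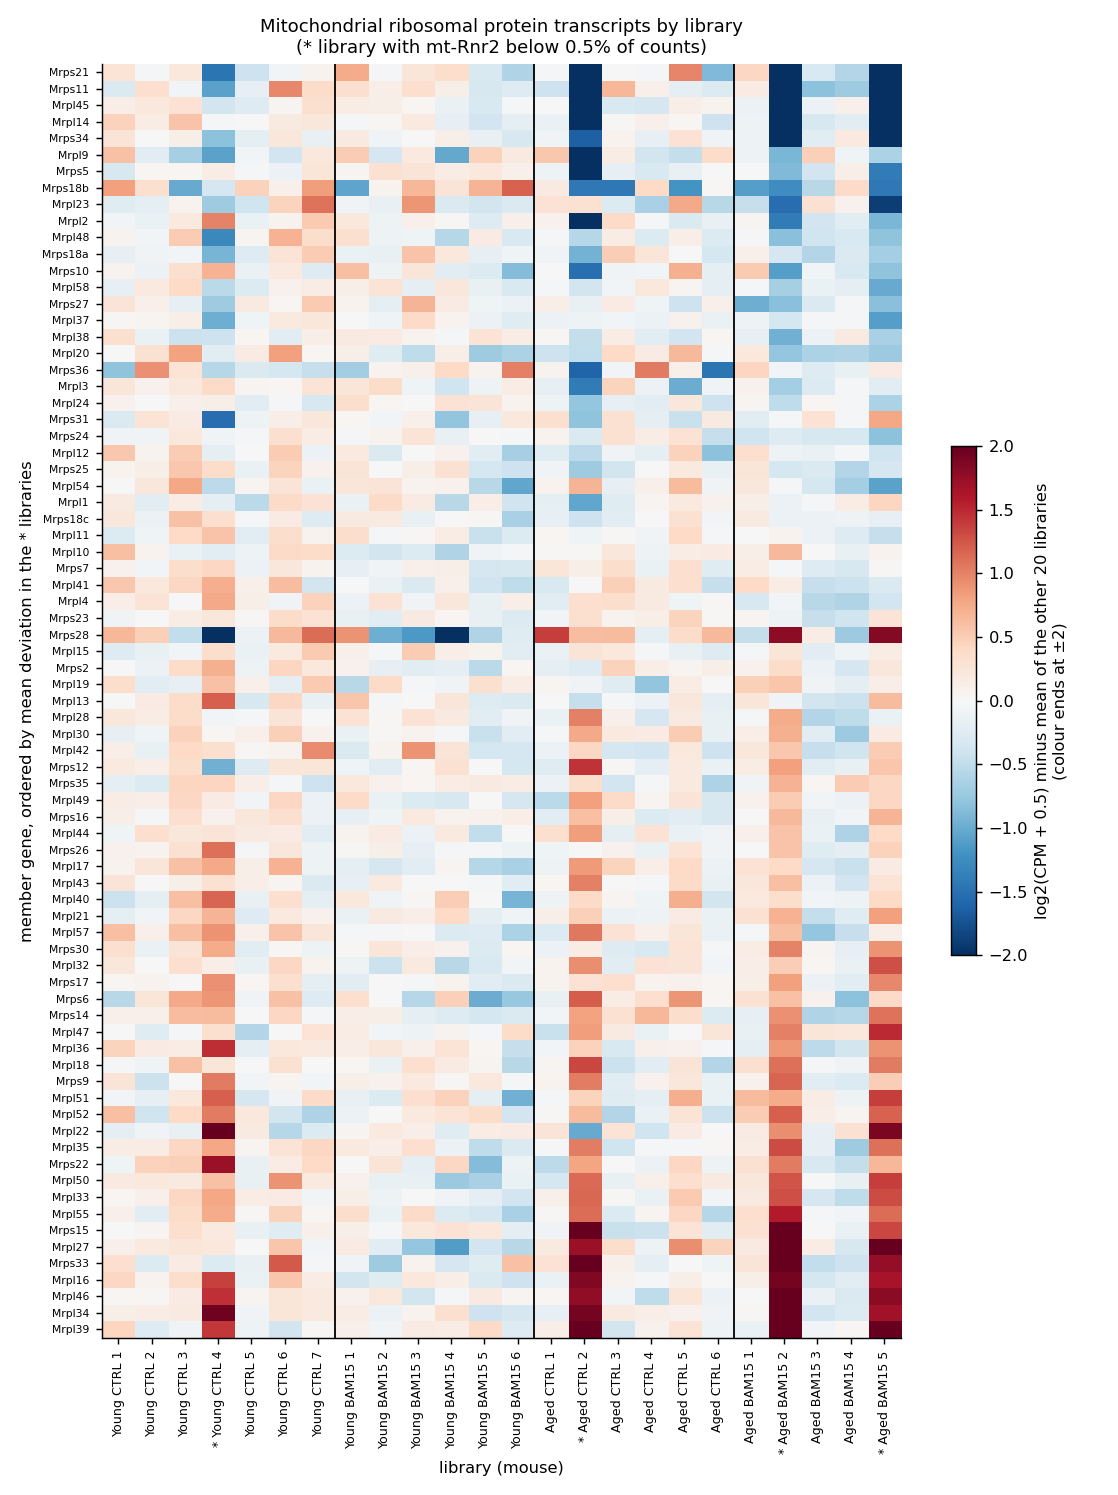
Deviation of each of the 77 genes (rows, ordered by their mean deviation in 4 libraries) in each of the 24 mice (columns, by group) from the mean of the 20 libraries with ordinary mt-Rnr2, in log2 units; an asterisk marks those 4, the libraries with low mt-Rnr2. Their columns hold 20 to 32 genes that differ by more than 2-fold, and each other column at most 3.

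The 4 libraries stood apart in the balance among the 77 genes more than in their sum, as the heat map of deviations shows. In each of them 20 to 32 of the 77 genes differed by more than 2-fold from the mean of the other 20 libraries, against 0 to 3 genes in each of those 20. The middle 50% of the deviations spanned 1.00 to 1.63 log2 units, against 0.20 to 0.44. Neither measure was taken over all genes. The SD of the deviation averaged over the 4 libraries was 1.07 log2 units across the 77 genes and 1.29 across all genes tested. The share of counts on the 77 genes was 0.371 to 0.440%, against 0.285 to 0.362%, so it was above the range of the other 20. Averaged over the 4 libraries, 14 of the 77 genes (18.2%) were more than 2-fold higher than in the other 20 and 9 (11.7%) more than 2-fold lower, while over all genes tested 14.0% were higher and 26.7% lower by that size. In 12 of the 77 genes (15.6%) all 4 libraries were above all 20 others and in 5 (6.49%) all 4 were below; over all genes the shares were 6.91% and 8.76%. The groups of libraries were made from mt-Rnr2, so these values carry no test.

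Members for which these 4 libraries lay outside the range of the other 20 went both ways, and the examples that follow were named after their values were seen. Mrps21, a small-subunit protein with a bacterial homologue, ran from 10.1 to 37.7 CPM in the 20 libraries and from 0.275 to 6.57 CPM in the 4. Mrpl45, which helps to attach the ribosome to the inner membrane, was at 38.5 to 60.8 CPM and at 3.64 to 37.6 CPM. Mrps34, a mitochondrial addition to the small subunit, was at 33.6 to 51.5 CPM and at 5.58 to 23.7 CPM. For all 3 genes the 4 libraries lay below the range of the 20. On the other side, Mrpl39 was at 23.4 to 41.1 CPM in the 20 and at 81.9 to 157 CPM in the 4. Mrpl34 was at 62.4 to 103 CPM and at 268 to 355 CPM. Here the 4 lay above the range of the 20. Mrps34 overlaps Nme3 on the same strand at its 3' end, where QuantSeq reads fall.

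Mrps11 and Mrpl46, also named after their values were seen, are neighbours that diverge from one promoter region on chromosome 7, at chr7:78783119-78792989 on the plus strand and chr7:78775236-78783531 on the minus strand (GRCm38), with overlapping 5' ends. Mrps11 was at 8.45 to 30.3 CPM in the 20 libraries and at 1.27 to 7.03 CPM in the 4. Mrpl46 was at 15.9 to 27.0 CPM in the 20 and at 63.0 to 96.7 CPM in the 4. The 2 neighbours therefore stood on opposite sides in all 4 libraries. Across the 77 genes the deviation had a Spearman rho of 0.02 with transcript length, a value across genes, which share the same libraries.

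**Figure D2:**
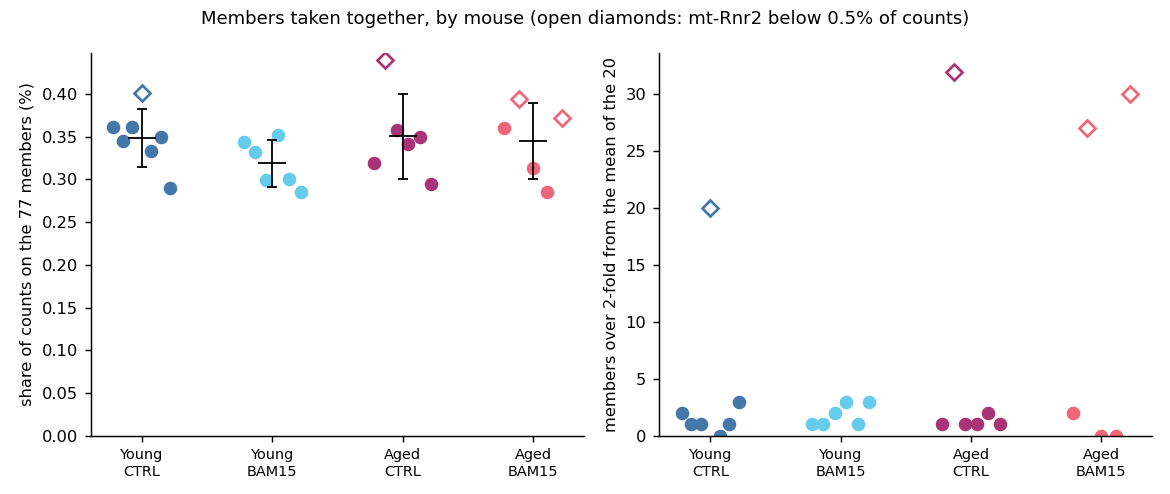
Share of counts on the 77 genes in percent, and the number of the 77 genes more than 2-fold from the mean of the 20 libraries, for each mouse by group. The 4 libraries with low mt-Rnr2 lie at 0.371 to 0.440% and at 20 to 32 genes, above all others in both panels.

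Promoters of the 77 genes were read to describe what they share beyond their names. The reference table (RefSeq, GRCm38.p6) held the 250 bases before and 50 bases after a gene start for 68 of the 77 genes, and the first record was used. Each word was searched on both strands, and matches could overlap one another. The NRF1 word GCATGCGC was in 8 of 68 promoters (11.8%), against 2.71% of all 32851 promoters in the table. The ETS-type word ACTTCCGG was in 11 (16.2%, against 3.89%) and the YY1 word AAGATGGC in 12 (17.6%, against 2.75%). NRF1, the ETS factor GABP (also called NRF2) and YY1 are known regulators of nuclear genes for mitochondria. At least 1 of these 3 words was in 28 of 68 (41.2%), against 8.83% of all promoters. The SP1 word GGGCGG was in 34 (50.0%, against 35.7%), the CREB word TGACGTCA in 2 (2.94%, against 1.79%), the E-box CACGTG in 5 (7.35%, against 7.15%) and the ESRRA word TCAAGGTCA in 0 (0.423% of all). For the 68 genes 1 record each was counted, whereas the 32851 promoters were all records, some genes having more than 1. The latter were not limited to the genes tested here. Promoters of the 68 genes had a median GC content of 58.2%, against 52.7% for all, so the shares are not matched for base composition. These matches are a description of letters, not of bound sites.

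The 4 members with the smallest p in the young BAM15 comparison were Mrpl17, Mrpl57, Mrpl41 and Mrpl10. The 150 bases before the start of 3 of them are printed here because they show the range from several words to none within this window; capitals mark the NRF1 word GCATGCGC and the SP1 word GGGCGG on either strand, and each sequence reads 5' to 3' on the strand of its gene. The stretches are chr7:105811088-105811237 (minus strand), chr11:97041432-97041581 (plus strand) and chr2:24975099-24975248 (minus strand), in that order.
Mrpl17: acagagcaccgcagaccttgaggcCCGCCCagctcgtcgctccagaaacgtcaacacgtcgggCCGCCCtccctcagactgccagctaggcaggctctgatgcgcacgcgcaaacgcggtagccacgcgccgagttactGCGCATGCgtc
Mrpl10: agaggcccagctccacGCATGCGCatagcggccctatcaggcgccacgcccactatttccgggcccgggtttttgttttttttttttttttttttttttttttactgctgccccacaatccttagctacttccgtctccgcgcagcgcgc
Mrpl41: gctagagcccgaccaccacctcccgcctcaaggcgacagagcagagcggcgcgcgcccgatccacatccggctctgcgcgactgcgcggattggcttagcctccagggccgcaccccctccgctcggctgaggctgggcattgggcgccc
Mrpl17 held the NRF1 word 11 bases before its start and SP1 words 126 and 87 bases before it. Mrpl10 held the NRF1 word 134 bases before its start, and Mrpl41 held no searched word in the stretch. The promoter of Mrpl57 held only the SP1 word, 247 bases before the start and outside the printed length.

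The comparisons that follow share groups: age and BAM15 in young mice share Young CTRL, and age and BAM15 in aged mice share Aged CTRL, so their values for a gene are not independent. Between Young CTRL and Aged CTRL, on the question of what age did to the depot without the drug, none of the 77 genes was called at an adjusted p under 0.05 with edgeR, where 33 genes or 0.207% of all 15939 were called. DESeq2 and limma-voom with quality weights also called 0, where they called 1.12% and 0.922% of all genes. At an unadjusted p under 0.05 edgeR put 1 of the 77 lower and 0 higher (over all genes 3.86% lower and 4.56% higher). DESeq2 put 2 lower and limma-voom 3 lower, and for these tools the share of all genes at that threshold was not taken. The log2 difference was below 0 for 51 of the 77 (53.5% of all genes), with a median of -0.08 against -0.04 over all genes. For 62 of the 77 the 95% interval of the difference lay within 2-fold in either direction, which was so for 43.9% of all genes. With the other 20 libraries 57 were below 0 (54.8% of all), the median was -0.11 against -0.04, and 2 were lower at an unadjusted p under 0.05 (5.61% of all). Those 2 were Mrps16 (log2 difference -0.32 ± 0.12, SE, adjusted p = 0.308) and Mrpl14 (-0.34 ± 0.14, adjusted p = 0.337), the latter named after its values were seen.

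Of single members in the age comparison, the small-subunit protein gene Mrps25 (chr6:92169525-92184033, minus strand) had the smallest p. It ranged from 34.6 to 55.8 CPM (median 41.5) in Young CTRL and from 23.1 to 43.7 CPM (median 35.2) in Aged CTRL. The groups overlapped, and the log2 difference was -0.39 ± 0.18 (SE, unadjusted p = 0.0432, adjusted p = 0.561), or -0.28 without the 4 libraries. Mrpl3, a core protein of the large subunit near the peptidyl transferase centre, ranged from 35.9 to 45.7 CPM (median 40.6) and from 12.9 to 47.5 CPM (median 31.5), a log2 difference of -0.46 ± 0.22. Both the lowest and the highest of these Mrpl3 values were in aged mice, the lowest in Aged CTRL 2, and the difference was -0.27 without the 4 libraries. Mrpl12, which forms the stalk that recruits translation factors and also binds the mitochondrial RNA polymerase, ranged from 58.9 to 98.4 CPM (median 70.9) and from 37.9 to 92.7 CPM (median 58.1). Its log2 difference was -0.40 ± 0.20 (-0.39 without the 4), and the groups overlapped over most of their range. Mrpl13 was next, at -0.41 ± 0.23, but at -0.19 when Young CTRL 4 alone was left out and at -0.12 without the 4.

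In Mrps12, Mrps7 and Mrps5, all of the small subunit, the values of the age groups overlapped. Mrps12, the homologue of the bacterial protein that guards decoding accuracy, had a mean of 50.9 ± 13.3 CPM among the 7 Young CTRL mice (SD) and of 61.7 ± 35.9 CPM among the 6 Aged CTRL mice (SD), where Aged CTRL 2 was at 134 CPM; in Young CTRL 4, also low in mt-Rnr2, it was at 25.1 CPM. Mrps7, in the head of the small subunit, averaged 54.4 ± 7.75 and 53.6 ± 8.98 CPM. Mrps5, at the entry of the mRNA channel and known from lifespan studies of worms and mice, averaged 56.9 ± 7.15 and 44.3 ± 17.8 CPM. The low Mrps5 mean in Aged CTRL contains 8.74 CPM in Aged CTRL 2, a library with low mt-Rnr2. Markers of other cells differed in the same comparison: B cell markers were below 0 in 10 of 12 genes (median log2 difference -1.11), brown and beige fat markers in 8 of 8 (-1.15) and proliferation markers in 7 of 8 (-0.78), while macrophage markers were above 0 in 9 of 9 (0.54). Their part in the values of the 77 genes was not tested.

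**Figure D3:**
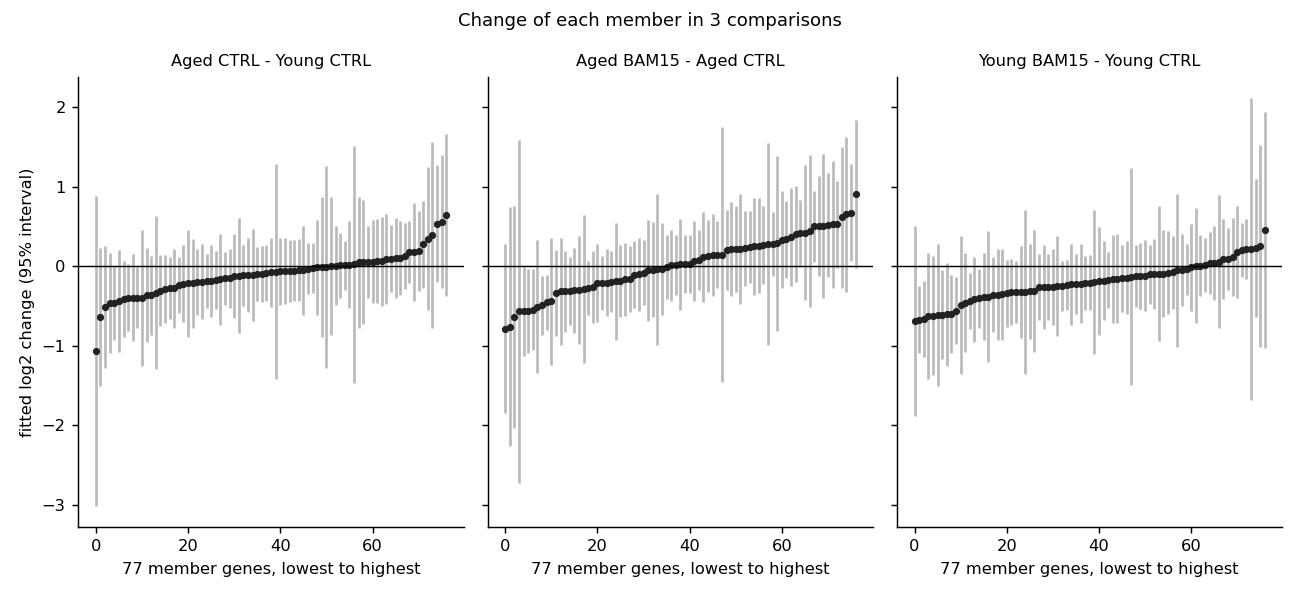
Log2 difference with its 95% confidence interval for each of the 77 genes, with a panel for age and 1 for BAM15 at each age; genes run from the lowest to the highest value in each panel. No gene passed an adjusted p of 0.05, and 51, 36 and 61 of the 77 lay below 0 for age, BAM15 in aged mice and BAM15 in young mice.

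In aged mice the BAM15 group was compared with Aged CTRL. None of the 77 genes was called with edgeR, and 0% of all genes were. The unadjusted p was under 0.05 for 2 members higher and 5 lower (4.5% and 4.59% of all genes), the log2 difference was below 0 for 36 of 77 (48.3% of all), and the median was 0.02, equal to that of all genes. Leaving out 1 library at a time gave 0 to 16 on the higher side, 16 without Aged CTRL 2 and 0 without Aged CTRL 3 or 4 or Aged BAM15 2 or 5, and 3 to 5 on the lower side. DESeq2 called 0, where it called 0.662% of all genes. At an unadjusted p under 0.05 it had 3 members higher and 5 lower. The share of all genes at that threshold was not taken for DESeq2, for limma-voom on the higher side or for the fits without 1 library. Those counts therefore have nothing to be set against. Limma-voom with quality weights, which gives libraries that fit poorly less say, called Mrpl4 and Mrps14 lower, 2 of the 77 where it called 3.41% of all genes lower. At an unadjusted p under 0.05 it had 1 higher and 11 lower, against 11.4% of all genes lower. Aged BAM15 holds 2 of the 4 libraries with low mt-Rnr2 among its 5. Without the 4 libraries 54 of the 77 were below 0 (48.5% of all), the median was -0.12 against 0.02 over all genes, and 5 were lower at an unadjusted p under 0.05 (5.41% of all) and 0 higher. Beside this, T cell markers were above 0 in 10 of 10 genes (median 1.96), proliferation markers below 0 in 8 of 8 (-0.90) and adipocyte markers below 0 in 6 of 10 (-0.37), and their part was not tested.

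Mrpl4 (chr9:21002738-21008839, plus strand), whose protein lines the exit tunnel for the new peptide, had the smallest p in aged mice. It ranged from 34.1 to 50.8 CPM (median 42.6) in Aged CTRL and was at 31.7, 38.1, 26.7, 26.0 and 30.1 CPM in the 5 Aged BAM15 mice. Of these, 4 lay under the lowest Aged CTRL mouse and 1, Aged BAM15 2, within its range. The log2 difference was -0.49 ± 0.18 (SE, unadjusted p = 0.0111, adjusted p = 0.403) and -0.56 without the 4 libraries (unadjusted p = 0.0032). Mrps24 (chr11:5703983-5715680, minus strand), a small-subunit protein at the mRNA entry, was at 31.9, 35.4, 33.7, 33.8 and 23.6 CPM against 30.4 to 52.2 CPM (median 45.6), a log2 difference of -0.45 ± 0.17 (SE) and of -0.45 also without the 4 libraries. Its groups overlapped through 2 Aged CTRL mice, and only Aged BAM15 5 was under the control range.

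The 2 members with an unadjusted p under 0.05 on the higher side were Mrps30 and Mrpl52, both mitochondrial additions to the large subunit. Mrps30 was at 39.2, 71.5, 37.0, 31.5 and 66.5 CPM in Aged BAM15 against 28.8 to 42.8 CPM (median 33.8) in Aged CTRL. Mrpl52 was at 76.6, 124, 59.2, 56.0 and 122 CPM against 35.9 to 83.4 CPM (median 52.1). In both genes the 2 high mice were Aged BAM15 2 and 5, the libraries with low mt-Rnr2, and the other 3 lay inside the control range. For Mrpl52 the top of that range was Aged CTRL 2, also low in mt-Rnr2. The next highest control, Aged CTRL 5, was at 65.4 CPM, under the 76.6 CPM of Aged BAM15 1. The log2 difference went from 0.50 ± 0.22 to 0.09 for Mrps30 and from 0.68 ± 0.29 to 0.38 for Mrpl52 without the 4 libraries.

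In young mice the BAM15 group was compared with Young CTRL. None of the 77 genes was called with edgeR, and 0% of all genes were. DESeq2 called 0, where it called 1.02% of all genes. At an unadjusted p under 0.05 it had 7 members lower and 0 higher. The share of all genes at that threshold was not taken for DESeq2, for limma-voom on the higher side or for the fits without 1 library. Limma-voom with quality weights called Mrpl17 and Mrpl20 lower, 2 of the 77 where 1.86% of all genes were called lower, and at an unadjusted p under 0.05 it had 10 lower and 0 higher, against 10.3% of all genes lower. By edgeR 7 members were lower and 0 higher at an unadjusted p under 0.05, where 6.88% and 6.18% of all genes were; without 1 library the lower count ran from 4 (without Young CTRL 6) to 10 (without Young BAM15 1). The log2 difference was below 0 for 61 of the 77, against 47.3% of all genes, with a median of -0.20 against 0.03 over all genes; the median was -0.12 when Young CTRL 4 alone was left out. Without the 4 libraries, of which only Young CTRL 4 is in these groups, 62 were below 0 (47.7% of all), the median was -0.14 against 0.03, and 15 were lower (10.3% of all) and 0 higher at an unadjusted p under 0.05.

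**Figure D4:**
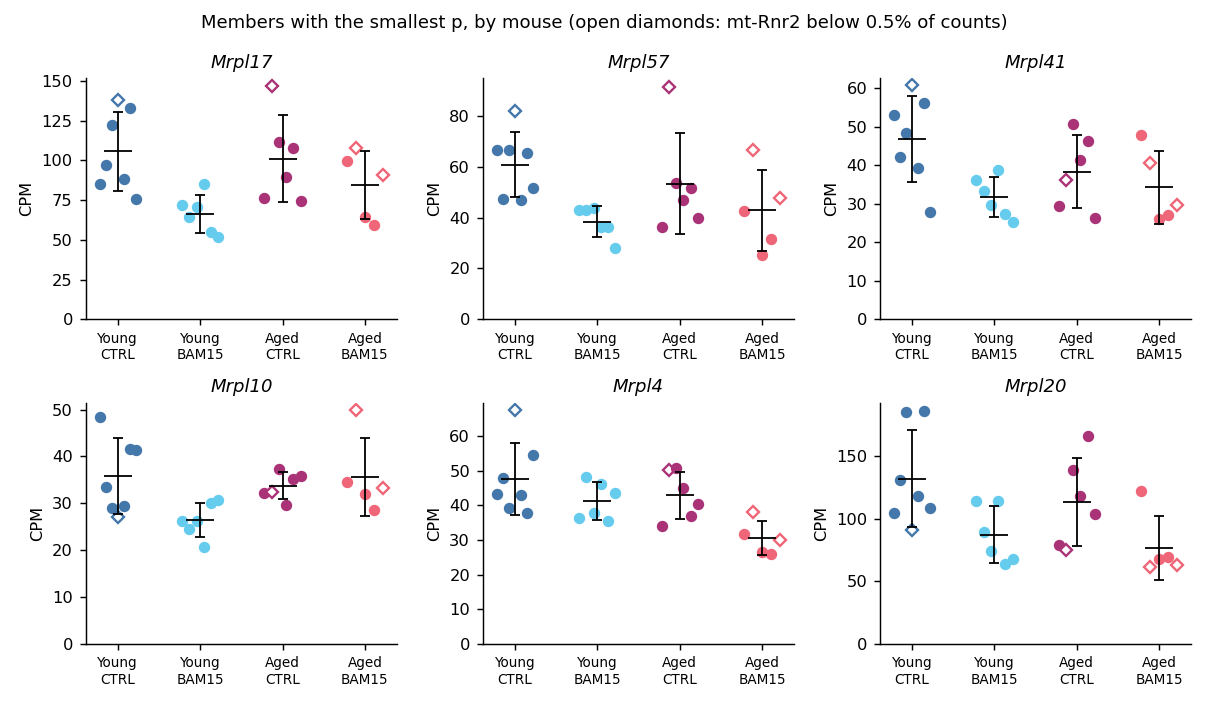
CPM of Mrpl17, Mrpl57, Mrpl41, Mrpl10, Mrpl4 and Mrpl20 in each mouse by group, with the mean and SD; open diamonds are the 4 libraries with low mt-Rnr2. In Mrpl57 all 6 Young BAM15 mice (28.1 to 43.8 CPM) lie under all 7 Young CTRL mice (46.9 to 81.6 CPM); in the other 5 genes the 2 groups overlap.

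The smallest p in young mice belonged to Mrpl17 (chr7:105803206-105811099, minus strand), a large-subunit protein with a bacterial homologue, whose promoter is the first of those printed. It ranged from 75.9 to 138 CPM (median 97.0) in Young CTRL and from 51.9 to 84.9 CPM (median 67.5) in Young BAM15. The groups overlapped only between 75.9 and 84.9 CPM. The log2 difference was -0.67 ± 0.20 (SE, unadjusted p = 0.00304, adjusted p = 0.207), and -0.61 without the 4 libraries. In aged mice the same gene was at 99.6, 108, 64.7, 59.5 and 91.1 CPM with BAM15 against 74.8 to 147 CPM (median 98.7) without it, so 2 treated mice were under the control range.

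Mrpl57 (chr14:57826234-57829296, plus strand), a small mitochondrial addition to the large subunit, ranged from 46.9 to 81.6 CPM (median 65.3) in Young CTRL and from 28.1 to 43.8 CPM (median 39.7) in Young BAM15. It was the only one of the 77 whose young groups did not overlap in the lower direction, and none did in the higher direction; 0.646% of all genes were lower without overlap. The log2 difference was -0.66 ± 0.23 (SE, adjusted p = 0.268) and -0.60 without the 4 libraries (adjusted p = 0.0997). In aged mice Mrpl57 was at 42.5, 66.6, 25.5, 31.7 and 47.7 CPM with BAM15 against 36.2 to 91.3 CPM (median 49.1), with overlapping groups.

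Mrpl41 (chr2:24974117-24975098, minus strand), a mitochondrial addition to the large subunit that is also known for binding Bcl2, ranged from 28.0 to 60.8 CPM (median 48.5) in Young CTRL and from 25.3 to 38.9 CPM (median 31.6) in Young BAM15. Mrpl10 (chr11:97041560-97049213, plus strand), which anchors the Mrpl12 stalk, ranged from 27.1 to 48.5 CPM (median 33.5) and from 20.7 to 30.8 CPM (median 26.2). Both pairs of groups overlapped. The log2 differences were -0.56 ± 0.21 for Mrpl41 and -0.44 ± 0.17 for Mrpl10 (SE), and -0.50 and -0.51 without the 4 libraries. Mrpl12 itself ranged from 42.4 to 77.3 CPM (median 63.0) in Young BAM15, a log2 difference of -0.34 ± 0.20 from Young CTRL (-0.42 without the 4). The other 3 of the 7 were Mrpl20 (-0.60 ± 0.24), Mrps2 (-0.40 ± 0.18) and Mrpl50 (-0.61 ± 0.27), the second of them named after its values were seen; without the 4 libraries they were at -0.69, -0.32 and -0.58. Mrpl20, a protein that joins early in assembly of the large subunit, ranged from 91.1 to 186 CPM (median 118) and from 64.0 to 114 CPM (median 81.6) in young mice.

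Not all members went the same way. Mrps5 had a log2 difference of 0.18 ± 0.28 in young mice, with a mean of 56.9 ± 7.15 CPM over the 7 control mice and 64.5 ± 4.36 CPM over the 6 treated mice (SD). Mrps7 (-0.25 ± 0.15) and the mitochondrial addition Mrps22 (-0.60 ± 0.31) were below 0. Mrps22 was at 77.2 CPM in Young CTRL 4 against a group median of 30.6 CPM, and its difference was -0.28 without the 4 libraries. The proteins of release and membrane attachment had nearly equal group means: Mrpl58, a member of the release factor family that became a ribosomal protein, averaged 33.0 ± 7.15 and 33.2 ± 5.63 CPM, and Mrpl45 averaged 51.3 ± 9.01 and 48.2 ± 5.61 CPM.

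Markers of other cells also differed between the young groups. B cell markers were above 0 in 11 of 12 genes, with a median log2 difference of 2.36 and a summed level of 608 to 1353 CPM in Young CTRL and 340 to 2629 CPM in Young BAM15. T cell markers were above 0 in 10 of 10, with a summed level of 7.66 to 201 CPM and 7.03 to 574 CPM. Proliferation markers were below 0 in 8 of 8, with a summed level of 64.0 to 131 CPM and 40.7 to 75.8 CPM. Muscle markers spanned 33.4 to 63448 CPM and 31.7 to 71757 CPM, the upper end of each being 1 mouse (Young CTRL 7 and Young BAM15 3). Skin keratinocyte markers had a summed level of 6.40 to 1018 CPM in Young CTRL and 8.45 to 23.1 CPM in Young BAM15. The highest were Young CTRL 1 (1018 CPM) and Young CTRL 7 (218 CPM). Without Young CTRL 1, Young CTRL 7 and Young BAM15 3 the median of the 77 genes was -0.26, beside 0.06 over all genes. Adipocyte markers were below 0 in 8 of 10, with a median of -0.29. No marker of these lists was at 0 in all libraries. That was fixed by the deposited data, where the lowest total count of a gene was 72. With the levels of B cell and muscle markers as covariates, 52 of the 77 were below 0 in young mice, the median was -0.17, 3 were lower and 0 higher at an unadjusted p under 0.05, and the smallest adjusted p was 0.788. In that fit the median over all genes was -0.0009, and 7 genes (0.0439%) were called. The shares of all genes below 0 or at an unadjusted p under 0.05 were not taken for it. The part of T cells, proliferation and other cell types in the values was not tested.

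Split by symbol, 41 of 48 Mrpl genes and 20 of 29 Mrps genes were below 0 in young mice, with medians of -0.24 and -0.10. Without the 4 libraries the medians were -0.14 and -0.15. Split by descent, 38 of 46 genes with a bacterial homologue and 23 of 31 without one were below 0, with medians of -0.21 and -0.20. In aged mice the medians were 0.05 for the Mrpl and -0.03 for the Mrps genes, and with age -0.08 and -0.06. Differences between these classes were not tested. A further 5 subunits that carry other names, outside the rule, had 3 of 5 below 0 in young mice and a median of -0.22. None of the 5 was called there, where 0% of all genes were.

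**Figure D5:**
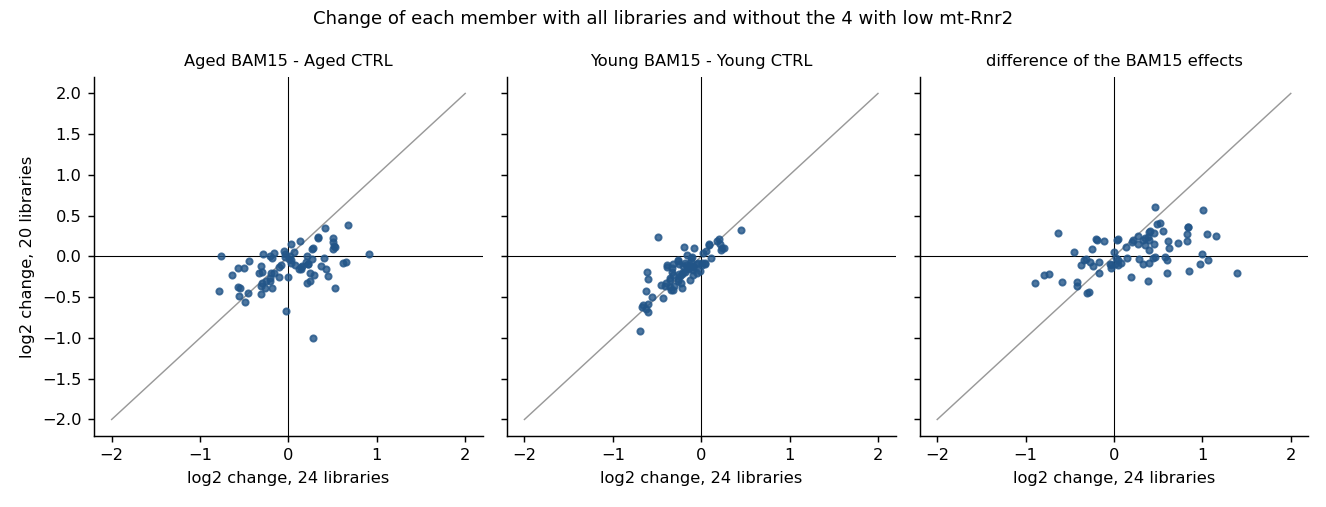
Log2 difference of each of the 77 genes with all 24 libraries (horizontal axis) and without the 4 libraries of low mt-Rnr2 (vertical axis), by comparison. The median went from 0.02 to -0.12 for BAM15 in aged mice and from -0.20 to -0.14 in young mice.

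Whether the BAM15 effect differed between ages was tested as the difference between both effects, aged minus young. None of the 77 was called with edgeR (0% of all genes), nor with DESeq2 (0.0126% of all) or limma-voom (0% of all). At an unadjusted p under 0.05 edgeR had 6 higher and 0 lower (3.22% and 1.85% of all genes), DESeq2 6 higher and 0 lower, and limma-voom 1 and 1. Leaving out 1 library at a time moved the 6 higher with edgeR to between 1 (without Aged BAM15 5) and 18 (without Aged CTRL 2); it was 11 or more without Aged BAM15 3 or 4, and 3 or fewer also without Young CTRL 1 or 4, Young BAM15 6, Aged CTRL 1, 3, 4 or 6, or Aged BAM15 2. The share of all genes at that threshold was not taken for DESeq2, limma-voom or the fits without 1 library. The difference between the effects was below 0 for 25 of 77 (52.5% of all), with a median of 0.27 against -0.04 over all genes. With the other 20 libraries 38 were below 0 (50.1% of all), the median was 0.03 and none had an unadjusted p under 0.05. The members with the smallest p were Mrpl50 (1.01 ± 0.40), Mrpl22 (1.40 ± 0.62), Mrpl27 (1.15 ± 0.53) and Mrps30 (0.62 ± 0.30).

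Mrpl50 was at 38.9, 80.7, 33.2, 30.1 and 87.3 CPM in Aged BAM15, with mice 2 and 5 high, and at 73.5 CPM in Aged CTRL 2 against a group median of 36.8 CPM. Its value was 0.57 ± 0.29 without the 4 libraries. Mrpl22, at the exit tunnel, was at 57.4 CPM in Young CTRL 4 and at 7.46 to 12.9 CPM in the other 6 Young CTRL mice, and its value was -0.20 without the 4 libraries. Mrpl27, near the peptidyl transferase centre, was at 47.0, 187, 46.2, 33.2 and 183 CPM in Aged BAM15, where mice 2 and 5 are the ones low in mt-Rnr2, and its value was 0.26 without the 4. Mrps30 went to 0.10. In 28 of the 77 genes the 95% interval of the difference between effects lay within 2-fold, as it did in 2866 of all 15939 genes tested.

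Aged BAM15 and Young CTRL differ in both age and drug, and the comparison shares both groups with those above. None of the 77 was called with edgeR, where 205 genes or 1.29% were. DESeq2 called 2 of the 77 lower, Mrpl4 and Mrpl20, and 2.27% of all genes lower. Limma-voom called 7 lower (Mrpl17, Mrpl20, Mrpl28, Mrpl4, Mrpl57, Mrps14 and Mrps23), and 5.62% of all genes lower. At an unadjusted p under 0.05 edgeR had 4 higher and 11 lower (8.98% and 7.85% of all genes), DESeq2 4 and 10, and limma-voom 1 and 23 (12.9% of all genes lower). Without 1 library the edgeR counts ran from 1 (without Aged BAM15 2 or 5) to 10 (without Young CTRL 4) higher and from 6 (without Aged BAM15 2) to 12 lower. At that threshold no share of all genes was taken for DESeq2, limma-voom on the higher side or the fits without 1 library. The log2 difference was below 0 for 45 of 77 (50.9% of all) with a median of -0.13 against -0.01. Over the other 20 libraries 64 were below 0 (50.4% of all), the median was -0.23 against 0.00, and 14 were lower (7.89% of all).

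Mrpl4 had the smallest p here too. It was at 37.8 to 67.6 CPM (median 43.3) in Young CTRL, against the 5 Aged BAM15 values of 26.0 to 38.1 CPM given above, and only Aged BAM15 2 was above the lowest Young CTRL mouse. The log2 difference was -0.64 ± 0.17 (SE, unadjusted p = 0.00112, adjusted p = 0.0656), and -0.65 without the 4 libraries. Mrpl20 (chr4:155802878-155809975, plus strand) was at 122, 61.5, 67.5, 69.6 and 63.2 CPM in Aged BAM15, so that 4 mice were under the Young CTRL range and Aged BAM15 1 within it, and its log2 difference was -0.78 ± 0.25 (-0.68 without the 4). Mrps24 was at 39.9 to 53.0 CPM in Young CTRL and at most 35.4 CPM in Aged BAM15, with a log2 difference of -0.48 ± 0.16 (-0.44 without the 4). Mrps24 and Mrpl14 were the 2 members lower in Aged BAM15 without overlap (0.822% of all genes). Mrpl14 was at 58.1 to 87.9 CPM in Young CTRL and at 55.3, 12.1, 47.4, 50.3 and 6.92 CPM in Aged BAM15, the 2 lowest being the libraries with low mt-Rnr2. Mrpl27, with a log2 difference of 1.06 ± 0.37, went to -0.17 without the 4 libraries.

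The wider machinery of mitochondrial translation was read from lists of known function. No gene of these lists was called for age or for BAM15 at either age. Over all genes edgeR called 0.207% for age and 0% for BAM15 at each age. With BAM15 in young mice, 10 of 27 genes for ribosome assembly and rRNA modification were below 0 (median 0.02), 6 of 13 translation factors (0.03), 7 of 20 mitochondrial aminoacyl-tRNA synthetases (0.07) and 8 of 14 genes of mitochondrial transcription and mRNA handling (-0.20); without the 4 libraries the medians were 0.04, -0.07, 0.10 and -0.07. The assembly, factor and synthetase lists had medians of 0.02 to 0.07 with all libraries beside 0.03 for all genes, where the median of the ribosomal proteins was -0.20; the difference between lists was not tested. The heat shock proteins of the matrix, Hspa9 and Hspd1, had log2 differences of -0.44 ± 0.17 and -0.70 ± 0.29, and Grsf1, an RNA-binding protein of mitochondrial RNA granules, had -0.80 ± 0.35; the 3 were at -0.39, -0.34 and -0.81 without the 4.

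In aged mice 8 of 27 assembly genes (median 0.16), 4 of 13 factors (0.16) and 4 of 20 synthetases (0.21) were below 0 with BAM15, with medians of 0.11, 0.01 and 0.04 without the 4 libraries. Guf1, the mitochondrial counterpart of the bacterial elongation factor LepA, had a log2 difference of 0.89 ± 0.28 (SE, unadjusted p = 0.00421, adjusted p = 0.334), and 0.91 without the 4 libraries. With age, 18 of 27 assembly genes (median -0.17), 9 of 13 factors (-0.13) and 10 of 20 synthetases (-0.01) were below 0, with medians of -0.10, -0.23 and -0.12 without the 4. The smallest p values there belonged to the leucyl-tRNA synthetase Lars2 (-0.66 ± 0.21, adjusted p = 0.248) and to Fastkd2, which acts in assembly of the large subunit (-0.72 ± 0.24, adjusted p = 0.267), at -0.61 and -0.47 without the 4. The regulators of mitochondrial genes Ppargc1a (-0.89 ± 0.41) and Esrra (-0.65 ± 0.27) were also below 0 with age, at -0.78 and -0.45 without the 4. Pprc1, a relative of Ppargc1a, had 1.81 ± 0.70, which went to 0.36 without the 4 libraries.

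Set beside other ribosomal and mitochondrial genes, the 77 genes had the same sign of the median in young mice as the respiratory chain and not as the cytosolic ribosome. With BAM15 in young mice 70 of 82 nuclear genes of respiratory chain subunits were below 0 (median -0.23). So were all 8 mRNAs of the mitochondrial genome that were found by symbol in the deposited data (-0.39). Of the cytosolic ribosomal protein genes, 71 of 81 were above 0 (median 0.29). Without the 4 libraries the medians were -0.17, -0.33 and 0.28. In aged mice the respiratory chain median was 0.01 and that of the cytosolic ribosome 0.22 with all libraries, and -0.28 and 0.31 without the 4, where the 77 genes went from 0.02 to -0.12. With age the medians were -0.23 for the respiratory chain, -0.15 for the cytosolic ribosome and -0.08 for the 77 genes. No gene of these lists was called in those 3 comparisons. The share called over all genes was 0.207% for age and 0% for BAM15 at each age. Differences between the lists were not tested.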

How the data were processed

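The authors deposited raw gene counts and a second table of signal values. By recomputation, the deposited signal values equal the counts over a size factor of each library (largest deviation 6.05e-09 counts), and only their gene symbols were used. Per the submitters' processing notes, R 3.4.3, DESeq2 1.18.1 and build GRCm38 were used; no aligner, counter, strand setting or annotation is given in the sources used here. Without a stated strand setting, reads of overlapping genes may not be separated.

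Counts were filtered with filterByExpr (15939 of 17541 genes kept), normalised by TMM (trimmed mean of M values) and fitted in edgeR 4.0.16 (R 4.3.3), with its quasi-likelihood test, over all 24 libraries with a term for group (20 residual degrees of freedom, common biological coefficient of variation 0.621). Library totals of 8.62 to 21.9 M counts set the counting precision. P values were adjusted over all genes tested by Benjamini and Hochberg's method and called at under 0.05, and all tests are two-sided. SE is the absolute log2 difference divided by the square root of F. Alternatives included DESeq2 1.42.0 and limma 3.58.1 (voom with quality weights).

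The members and lists were chosen with earlier results of these data known. Genes named are the 4 members with the smallest p in each of 5 comparisons, the 3 highest and 3 lowest in CPM, a fixed set, and up to 3 genes per other list; Mrpl14, Mrpl37, Mrpl39, Mrpl46, Mrpl48, Mrps2, Mrps11, Mrps14, Mrps21, Mrps23 and Mrps28 fall outside this rule and were named after their values were seen. The 4 libraries of low mt-Rnr2 were those under 0.5% of counts. Positions are from GENCODE vM21.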

Additional observations from a re-analysis of the deposited data

Results flagged for a closer look

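Single mice far from the rest of their group were looked for in 22 of the named genes, by the gap to the nearest mouse over the range of the group. Of 88 pairs of gene and group, 11 passed the critical value. It passes about 1 in 20 by chance where values are normally distributed, which was not shown for CPM. The genes were partly chosen by their values and share the same libraries, so 11 of 88 was not tested against that rate. In 7 of the 11 the far mouse was one of the 4 libraries with low mt-Rnr2.

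In Young CTRL 4, Mrpl13 was at 87.2 CPM (nearest mouse 50.7), Mrpl22 at 57.4 CPM (nearest 12.9) and Mrpl34 at 320 CPM (nearest 97.8). In Aged CTRL 2, Mrpl34 was at 313 CPM (nearest 94.0), Mrpl50 at 73.5 CPM (nearest 42.4) and Mrpl57 at 91.3 CPM (nearest 53.7). In Aged BAM15 2, Mrpl10 was at 50.0 CPM (nearest 34.4). The other 4 were in libraries with ordinary mt-Rnr2. Mrpl20 was at 122 CPM (nearest 69.6) and Mrps25 at 45.3 CPM (nearest 31.0) in Aged BAM15 1, Mrpl22 was at 9.50 CPM (nearest 11.8) in Young BAM15 4, and Mrpl23 was at 2.88 CPM (nearest 1.26) in Young BAM15 3.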

How the results depend on the processing

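With edgeR the number of the 77 genes called was 0 in all 5 comparisons under other normalisation factors, other filters and the covariates. The same held without the 4 libraries. Leaving out 3 young libraries with muscle or skin RNA (Young CTRL 1, Young CTRL 7 and Young BAM15 3) also gave 0. Aged libraries with muscle RNA were kept in that fit, such as Aged CTRL 1 (summed muscle markers 25115 CPM) and Aged BAM15 1 (11553 CPM). The number called was 0 also with only the groups compared, a fit made for the 4 comparisons between groups. There 76 of the 77 were tested for BAM15 in aged mice. Limma-voom with quality weights called 2 for BAM15 in aged mice (Mrpl4 at -0.62, adjusted p = 0.0147), 2 in young mice (Mrpl17 at -0.59, adjusted p = 0.0348) and 7 for Aged BAM15 against Young CTRL (Mrpl4 at -0.72, Mrpl20 at -0.84), all lower, beside 3.41%, 1.86% and 5.62% of all genes. DESeq2 called 2 in the last (Mrpl4 at -0.64, Mrpl20 at -0.78), beside 2.27% of all genes lower. Under limma-voom the medians were -0.11 for age (61 below 0), -0.13 for BAM15 in aged mice (52), -0.10 in young mice (56) and -0.22 for Aged BAM15 against Young CTRL (63). Over all genes the limma-voom medians were -0.01, 0.04, 0.05 and 0.06 in that order, and the share below 0 was not taken. Leaving out 1 library at a time with edgeR gave 0 to 1 called for Aged BAM15 against Young CTRL and 0 in the others. The gene called was Mrpl48 without Young CTRL 4, and Mrpl20, at -1.01, without Aged BAM15 1. Over all genes 2.90% were called without Young CTRL 4 and 3.88% without Aged BAM15 1. Without 1 library at a time the medians ran from -0.16 to -0.04 for age and from -0.04 to 0.08 for BAM15 in aged mice. In young mice they ran from -0.27 to -0.12. They ran from 0.17 to 0.34 for the difference between effects and from -0.18 to -0.03 for Aged BAM15 against Young CTRL. In the fits at these ends the medians over all genes were -0.05 and -0.04 for age and 0.01 and -0.01 in aged mice. They were -0.01 and 0.05 in young mice, -0.02 and -0.04 for the difference, and 0.00 and -0.02 for Aged BAM15 against Young CTRL. For the difference between effects the median was -0.0083 with 39 genes below 0 under limma-voom, and 0.0293 with 38 without the 4 libraries. Mrpl22 turned sign in it (-0.0301 and -0.20 under the same settings), as did Mrpl27 in Aged BAM15 against Young CTRL (-0.0605 and -0.17). The cause was not tested.

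By the median, mice with the same replicate number did not deviate together more than other pairs. Deviations correlated with a median r of -0.04 over 33 same-numbered pairs (-0.56 to 0.63) and 0.00 over 182 others. Whether some mice shared a batch was not tested. With a replicate block none of the 77 was called; the medians were -0.15 for age, 0.02 and -0.21 for BAM15 in aged and young mice, 0.25 for the difference and -0.16 for Aged BAM15 against Young CTRL. The medians over all genes in that fit were -0.07, 0.03, 0.06, -0.05 and -0.01 in the same order. Over all genes the block left 5 called for age and 17 for Aged BAM15 against Young CTRL.

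Fits with no normalisation factors, chosen after seeing the data, moved the median of all genes from 0.03 to 0.15 in young mice and from -0.04 to -0.18 for the difference; relative to it the 77 genes had -0.23, against -0.24 with factors, in young mice.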
